A study of Rattus norvegicus with 9 samples.

Results

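Cytosolic ribosomal proteins were followed across 9 rat hippocampus arrays. A probe set (a group of short probes for 1 transcript) was a member where every gene symbol listed for it is that of a ribosomal protein of the large subunit (Rpl or Rplp names) or of the small subunit (Rps names and Rpsa), with the S6 kinases and Rps19bp1 left out. This gave 87 of 31042 probe sets, with 75 gene labels. There were 55 probe sets of the large subunit, 31 of the small subunit and 1 listed for both (Rps10 and Rpl30). Of these, 57 are listed with 1 symbol and 30 with several, nearly always a gene together with its numbered copies and pseudogenes. The labels describe the RNA as coming from neurons of the rat hippocampus. There were 3 arrays each for 1 h of ketone bodies, 6 h of ketone bodies and a control in artificial cerebrospinal fluid, the salt solution in which brain tissue is kept alive outside the body. No exposure time is labelled for the control, no composition or dose for the ketone bodies, and no strain, age or sex. Nor do the labels state what sets the replicates of a group apart (animal, culture or RNA preparation), so p-values here measure only the spread between these arrays, which may be technical.

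Each ribosome joins a small subunit, which reads the messenger RNA, to a large subunit, which forms the peptide bonds. Each subunit holds ribosomal RNA and a set of proteins that cells make in balanced amounts. Their messenger RNAs are among the most abundant of the cell and start with a run of pyrimidines, the terminal oligopyrimidine tract, through which mTORC1 signalling controls how well they are translated. In neurons ribosomes also work in dendrites, close to synapses. Ketone bodies are fuels that the liver makes from fatty acids and that neurons can burn in place of glucose.

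Start sites of 8 members are shown because the tract is the sequence feature by which these genes are best known. Each line holds the 40 bases before the annotated start and the first 10 bases of the transcript, on the gene's own strand, from RefSeq's rat assembly GRCr8. Capitals mark CTTTCC, a run made only of pyrimidines. Only in Rpl35a do the capitals lie after the annotated start, inside the transcript. In Rps3, Rps15a, Rpsa, Rpl13a and Rpl5 they lie before it, so they do not mark the tract of the annotated message. The windows lie at chr1:163195767-163195816 (Rps3, minus strand), chr1:181860275-181860324 (Rps15a, minus strand), chr8:128728839-128728888 (Rpsa, plus strand), chr1:104748904-104748953 (Rpl13a, minus strand), chr11:81235012-81235061 (Rpl35a, minus strand), chr14:1995216-1995265 (Rpl5, minus strand), chr7:1563488-1563537 (Rpl41, minus strand) and chr12:46718381-46718430 (Rplp0, minus strand). The last pair has no CTTTCC on this strand within 50 bases of the start.
Rps3: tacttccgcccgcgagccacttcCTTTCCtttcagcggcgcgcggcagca
Rps15a: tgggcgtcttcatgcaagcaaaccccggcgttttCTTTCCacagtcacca
Rpsa: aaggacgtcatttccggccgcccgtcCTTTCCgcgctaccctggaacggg
Rpl13a: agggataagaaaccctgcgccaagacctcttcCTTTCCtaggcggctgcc
Rpl35a: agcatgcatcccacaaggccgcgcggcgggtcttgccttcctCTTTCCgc
Rpl5: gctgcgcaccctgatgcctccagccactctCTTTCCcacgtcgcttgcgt
Rpl41: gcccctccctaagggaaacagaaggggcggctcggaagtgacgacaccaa
Rplp0: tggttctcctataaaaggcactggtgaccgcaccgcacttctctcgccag

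RefSeq promoters were found for 57 of the 67 genes looked up by symbol. In the 50 bases on either side of the start, CTTTCC lay on the gene's strand in 17 of 57 (29.8%; 10 of 35 large subunit and 7 of 22 small subunit genes), against 4.97% of the 27457 promoters of all genes. On the other strand it was found in 3.51% of the ribosomal protein genes, against 5.04% of all genes. Searched on both strands of the whole 300 bases (250 before the start and 50 after), CCGGAAG, a core that ETS family factors bind, was found in 29.8%, against 9.63% of all promoters. The letters AAGATGG, a core of YY1 sites that in ribosomal protein genes often spans the start codon, were found in 15.8%, against 7.77%. TATAAA was found in 8 of 57, against 15.3% of all promoters, and within 50 bases of the start, on either strand, in 6 of 57 (10.5%), against 5.25%. None of these motifs holds another. A match describes the letters and is not evidence of binding, nor of a pyrimidine tract at the start of the message.

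Levels are given on the log2 scale of signal plus 16 after quantile normalization. The members were bright: 66 had a mean over log2 10, and the median over the 79 that could be tested was 11.48, against 7.14 over all 18625 tested probe sets. The other 8 members lay under the brightness limit (log2 5.21), 5 of the large and 3 of the small subunit, and have no test. They include Rpl3l, a paralog of Rpl3 known from heart and skeletal muscle, with 5.33, 4.67 and 4.24 on the 1 h arrays, 4.21, 4.62 and 4.84 on the 6 h arrays and 4.16, 4.18 and 4.67 on the control arrays. Rplp1 and Rplp2 of the stalk, Rps27 and Rps27a have no member and are not described among them. Over the arrays, the standard deviation within a group had a median of 0.088 for members over log2 10 and 0.199 for the dimmer ones.

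Markers of 7 cell types were read as a check of the label. Neuron markers were high, with a summed level of 13.70 to 13.83 on the 1 h arrays, 13.75 to 13.87 on the 6 h arrays and 13.87 to 13.96 on the control arrays. Markers of oligodendrocytes (14.15 to 14.46 over all arrays) and of astrocytes (13.13 to 13.32) were high too. Microglia had sums of 8.54 to 9.04 and endothelium 8.97 to 9.37. Choroid plexus had 11.89 to 12.21 and red blood cells 11.52 to 12.30. These sums hold only probe sets over the brightness limit, so none could lie near 0. They also cover different numbers of probe sets (10 for neurons, 7 for oligodendrocytes, 8 for astrocytes and 2 or 4 for the others), so their sizes cannot be compared between cell types. Whether the RNA came from a mixture of cell types was not tested. If it did, fewer cells of a type and less RNA per cell cannot be told apart. The 3'/5' ratio of beta-actin (log2 of the signal at the end of the message over that at its start), which grows as RNA degrades, was 1.38, 2.13 and 2.00 on the 1 h arrays, 2.55, 1.90 and 1.02 on the 6 h arrays and 1.36, 1.26 and 1.41 on the control arrays.

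After 1 h of ketone bodies, ribosomal protein messages of both subunits were slightly higher than in the control, by about the same amount. The median log2 change was 0.15 over 50 large subunit probe sets and 0.15 over 28 small subunit probe sets, against 0.03 over all probe sets tested. A positive change was seen in 74 of 79 members (49 of 50 large and 24 of 28 small), or 93.7%, where 55.3% of all probe sets were positive. None passed limma's test over all probe sets at an adjusted p of 0.05, where the lowest among members was 0.25; 0.0215% of all probe sets passed as higher and 0.0107% as lower. At an unadjusted p under 0.05, 33 members were higher (22 large, 10 small and the one listed for both), which is 41.8%, against 6.68% of all probe sets, and 0 were lower, against 4.67%. All 1 h values lay above all control values in 39 members (49.4%), against 13% of all probe sets, and below them in 0, against 8.26%. The 66 members over log2 10 had a median of 0.15 and the 1285 other probe sets over log2 10 one of -0.003. The count of 33 was 20 without 1 h array 2 and 21 without control array 3. With the values as deposited the median was 0.27 for each subunit, and with centring on array medians 0.38, but the other bright probe sets then had medians of 0.09 and 0.19.

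**Figure D1:**
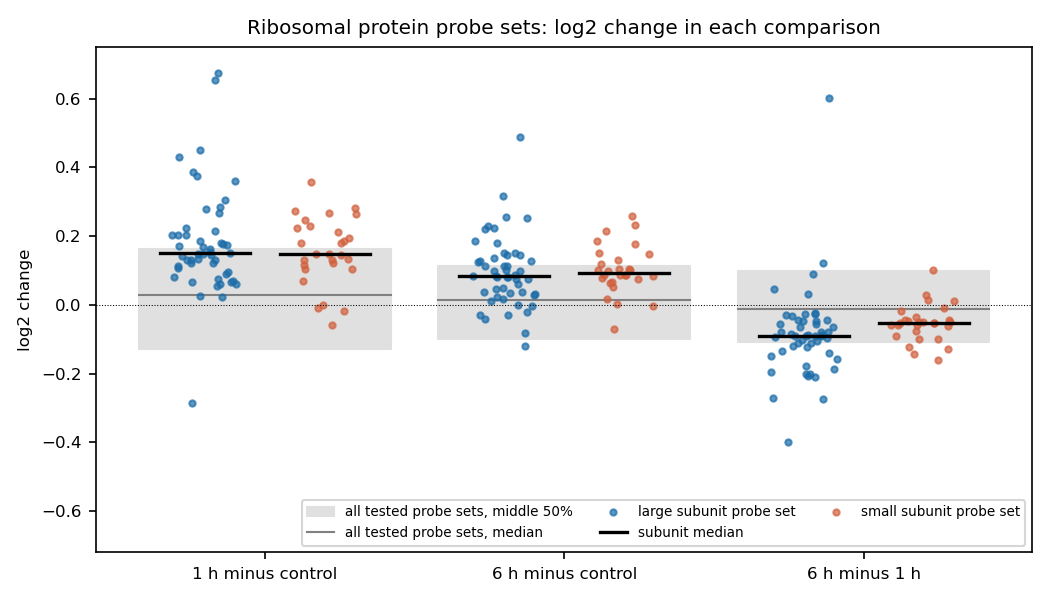
Log2 change of each tested ribosomal protein probe set (points; 50 large subunit, 28 small subunit) for 1 h minus control, 6 h minus control and 6 h minus 1 h, with the subunit median (black bar) and the median and middle 50% of all 18625 tested probe sets (grey). The subunit medians lie at 0.15 and 0.15 at 1 h, at 0.08 and 0.09 at 6 h, and at -0.09 and -0.05 between the times, and most points of the first comparison lie above 0.

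On each array both subunits stood at nearly the same value. The median difference of the large subunit members from the control mean was 0.16, 0.19 and 0.12 on the 1 h arrays and 0.03, 0.0002 and -0.03 on the control arrays. For the small subunit it was 0.15, 0.19 and 0.12 on the 1 h arrays and 0.01, -0.01 and -0.02 on the control arrays. On the 6 h arrays the large subunit stood at 0.09, 0.14 and 0.06 and the small subunit at 0.07, 0.14 and 0.07. Every 1 h and 6 h array therefore lay above every control array for both medians, and array 2 was the highest of its group at either time. The control arrays are set against their own mean, so their values centre near 0 by construction. The median of all tested probe sets was 0.02, 0.03 and 0.05 on the 1 h arrays, 0.07, 0.01 and -0.002 on the 6 h arrays and 0.01, 0.004 and -0.01 on the control arrays. With the mean ratio of beta-actin and Gapdh as a covariate the 1 h median of the small subunit was 0.19. Neuron markers stood lower beside the ribosomal shift: 0 of 10 probe sets were positive at 1 h (median -0.35) and 2 of 10 at 6 h (median -0.38). Of all probe sets, 55.3% were positive at 1 h and 53.8% at 6 h. The 2 red blood cell probe sets had a median of 0.29 at both times, and summed levels of 11.98 to 12.30 on the 1 h arrays, 11.90 to 12.17 on the 6 h arrays and 11.52 to 11.87 on the control arrays. Microglia markers had medians of 0.13 at 1 h and 0.03 at 6 h, and endothelial markers 0.12 and 0.22. Astrocyte markers had -0.07 and -0.02, oligodendrocyte markers -0.12 and -0.02, and choroid plexus markers -0.12 and 0.03. The part of these cell types in the ribosomal values was not tested.

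**Figure D2:**
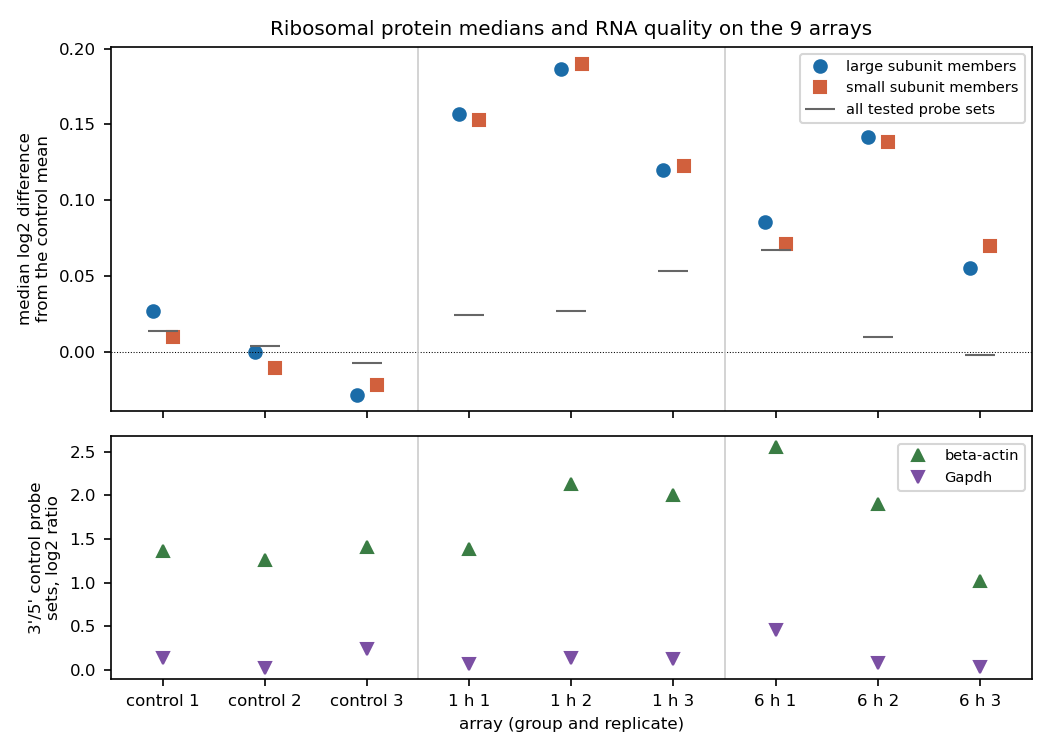
Upper panel: median log2 difference from the control mean of large subunit (circles) and small subunit members (squares) and of all tested probe sets (dashes) on each of the 9 arrays. Lower panel: 3'/5' signal ratio (log2) of the messages of beta-actin and Gapdh, read from control probe sets of the same arrays. Both subunits lie between 0.12 and 0.19 on the 1 h arrays and between -0.03 and 0.03 on the control arrays, while the beta-actin ratio runs from 1.02 to 2.55. The control arrays are set against their own mean and so centre near 0.

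Among large subunit members at 1 h, the probe set with the smallest p was that of Rpl36, listed with its copies Rpl36l2, Rpl36l3, Rpl36l5 and Rpl36l6. It read 7.11, 6.95 and 6.96 on the 1 h arrays, against 6.59, 6.21 and 6.19 on the control arrays, so the groups were apart. Its log2 change was 0.67 ± 0.14 (SE, n = 3 arrays a group throughout; adjusted p = 0.25), a fold of 1.59 on the scale of signal plus 16, and the largest among the members. It is also among the 13 tested members at or under log2 10. Over 21 settings, the main one included, its log2 change ran from 0.45 to 0.80. The lowest of the adjusted p values of limma over these settings was 0.0903. Rpl41, the shortest ribosomal protein, read 11.65, 11.73 and 11.76 on the 1 h arrays, against 11.42, 11.55 and 11.37 on the control arrays, a change of 0.27 ± 0.07 (adjusted p = 0.317). Its 1 h values were above all control values. Rpl36a, listed with its copy Rpl36al1, read 10.55, 10.75 and 10.43 on the 1 h arrays, against 10.34, 10.20 and 10.06 on the control arrays (0.38 ± 0.10, adjusted p = 0.332). A similarly bright probe set with the same listing had a smaller change of 0.20 ± 0.06 (adjusted p = 0.352), also without overlap. A dim probe set of Rpl8 and its copies averaged 8.33 ± 0.08 on the 1 h arrays, against 7.90 ± 0.10 on the control arrays (SD), without overlap (0.43 ± 0.11, adjusted p = 0.317). The brighter Rpl8 probe set overlapped between the groups, with a change of 0.15 ± 0.10.

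Members with known roles in the large subunit had changes of different sizes at 1 h. Rplp0, the base of the stalk that recruits elongation factors, overlapped with the control (0.13 ± 0.07). Near the peptidyl transferase centre, Rpl3 had changes of 0.07 ± 0.05 on its bright probe set and 0.39 ± 0.30 on a dim one, and Rpl10, listed with Rpl10l3 and Rpl10-ps14, one of 0.11 ± 0.09. Rpl5 and Rpl11, which bind 5S rRNA and, when ribosome assembly stalls, the p53 ligase Mdm2, had 0.20 ± 0.11 and 0.30 ± 0.12 (adjusted p = 0.393 for Rpl11). Rpl11 read 11.56, 11.55 and 11.38 on the 1 h arrays, against 11.40, 11.28 and 10.90 on the control arrays, and 1 h array 3 overlapped with the control. Rpl22, a member that also binds other RNAs, had all 1 h values (10.76, 10.67 and 10.83) above those of the control (10.50, 10.59 and 10.34), with a change of 0.28 ± 0.08 (adjusted p = 0.335). A probe set of its paralogs Rpl22l1, Rpl22l2 and Rpl22l3 had 0.18 ± 0.08. Rpl13a, known from mouse and human cells for silencing inflammatory messages after leaving the ribosome, had 0.11 ± 0.11, with 1 h array 3 at 11.09 beside 11.45 and 11.44. Rpl38, listed with Rpl38-ps8 and Rpl38-ps9 and needed in the mouse for translating Hox messages, had 0.12 ± 0.06.

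The paralogs Rpl26 and Rpl26l1 were read at very different brightness. The Rpl26l1 probe set is dim, with a mean of log2 6.08. Rpl26 read 12.51, 12.49 and 12.45 on the 1 h arrays, against 12.30, 12.35 and 12.42 on the control arrays (0.13 ± 0.05, adjusted p = 0.391). Its paralog Rpl26l1 read 6.24, 6.33 and 6.72 on the 1 h arrays, against 5.82, 5.77 and 5.73 on the control arrays (0.65 ± 0.19, adjusted p = 0.335). Both were above the control on every 1 h array, and the difference between the paralogs was not tested. Rpl39, at the exit of the peptide tunnel, was the only one of the 50 tested large subunit members with a negative change at 1 h. It read 5.94, 5.69 and 5.93 on the 1 h arrays, against 5.53, 6.37 and 6.51 on the control arrays (-0.28 ± 0.26, adjusted p = 0.663), with control array 1 below the whole 1 h group. The pair of Rpl7l1 probe sets, whose protein acts in assembly of the large subunit, had 0.02 ± 0.12 each. Rpl35a had 0.08 ± 0.06 and Rpl27 0.07 ± 0.06. Rpl15, listed with Rpl15l3, had 0.17 ± 0.07 (adjusted p = 0.406) and was above the control on every 1 h array.

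In the small subunit at 1 h, the smallest p belonged to Rps18, a protein of the head of the subunit, listed with Rps18l5 and Rps18l1. It read 11.62, 11.60 and 11.60 on the 1 h arrays, against 11.45, 11.36 and 11.32 on the control arrays, with a change of 0.23 ± 0.06 (adjusted p = 0.299). The 1 h values were tight and all higher. Rps20, listed with its copies and also of the head, read 11.19, 11.15 and 11.08 on the 1 h arrays, against 10.96, 10.85 and 10.87 on the control arrays (0.25 ± 0.06, adjusted p = 0.299). Rps15a read 11.87, 12.03 and 12.02 on the 1 h arrays, against 11.58, 11.83 and 11.43 on the control arrays (0.36 ± 0.10, adjusted p = 0.335), the largest change of the subunit. Rps16 read 11.88, 11.73 and 11.89 on the 1 h arrays, against 11.65, 11.67 and 11.60 on the control arrays (0.19 ± 0.06, adjusted p = 0.352). Rps14, which with other proteins shapes the subunit's platform, had 0.18 ± 0.06 (listed with Rps14-ps7; adjusted p = 0.356), and Rps15 had 0.21 ± 0.07 (adjusted p = 0.378). In these 6 probe sets all 1 h values lay above all control values.

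Other small subunit proteins with known roles overlapped more. Rps3, at the entry of the message channel and also a DNA repair protein, read 11.91, 11.66 and 11.33 on the 1 h arrays, against 11.46, 11.22 and 11.36 on the control arrays (0.28 ± 0.13), with array 3 inside the control range. Rps6, the substrate of the S6 kinases, had 0.19 ± 0.09, and Rps19, listed with its copies and mutated in human Diamond-Blackfan anaemia, had 0.15 ± 0.07. The 3 probe sets of Rpsa, the protein also known as the laminin receptor, had 0.15 ± 0.08, 0.22 ± 0.10 and 0.12 ± 0.07, and each was above the control on every 1 h array. Rps27l, a p53-induced paralog of Rps27, had 0.10 ± 0.19. The 4 negative changes of the subunit were small: Rps4x with Rps4x-ps9 (-0.06 ± 0.07), Rps7 with Rps7-ps23 (-0.02 ± 0.08), 1 of 2 Rps2 probe sets (-0.01 ± 0.09, beside 0.13 ± 0.10 for the other) and Rps13 with its copies (-0.001 ± 0.09). With centring on array medians these became 0.20, 0.20, 0.23 and 0.23, so their sign depended on the scaling. Rps4x read 11.85, 11.77 and 11.86 on the 1 h arrays, against 11.84, 11.79 and 12.03 on the control arrays.

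**Figure D3:**
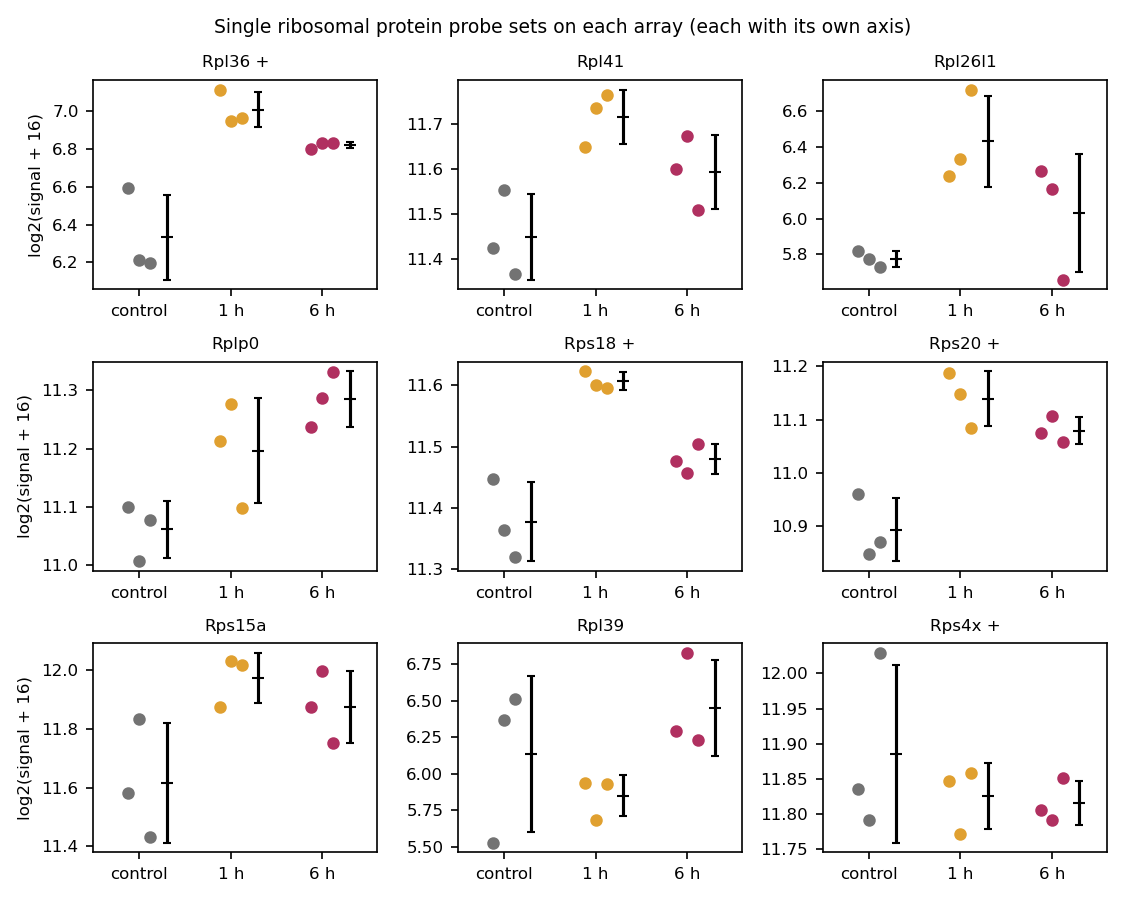
Normalized log2(signal + 16) of 9 ribosomal protein probe sets on each control, 1 h and 6 h array (points), with the group mean and SD (bars, n = 3); a plus sign marks a probe set listed with further copies of the gene, and each panel has its own axis. Rps18 and Rps20 are above the control on all 1 h and 6 h arrays, Rplp0 on all 6 h arrays, and Rpl39 and Rps4x show no such separation from the control.

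After 6 h the same direction was seen with smaller values. This comparison shares its control arrays with the 1 h comparison, so the values of both are given side by side. The median log2 change was 0.08 over the large subunit and 0.09 over the small subunit, against 0.01 over all probe sets. A positive change was seen in 70 of 79 members (43 of 50 large and 26 of 28 small), or 88.6%, against 53.8% of all probe sets. By limma, 0 members passed, with a lowest adjusted p of 0.82; 0.0215% of all probe sets passed as higher and 0.00537% as lower. At an unadjusted p under 0.05, 5 members were higher (6.33%), against 2.79% of all probe sets, and 0 were lower, against 1.47%. In 17 members (21.5%) all 6 h values lay above all control values, against 6.05% of all probe sets, and in 0 below, against 3.15%. The count of 5 was 3 without 6 h array 2 and 12 without 6 h array 3. With the values as deposited the medians were 0.13 and 0.16, and with centring 0.21 and 0.23, where 78 of 79 members were positive. Centring made 65.2% of all probe sets positive and 88.9% of the other probe sets over log2 10, whose median was then 0.13.

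The 5 members of lowest p at 6 h belonged to both subunits. Rpl36 and its copies read 6.80, 6.83 and 6.83 on the 6 h arrays, against 6.59, 6.21 and 6.19 on the control arrays (0.49 ± 0.14, adjusted p = 0.82). Rplp0 of the stalk read 11.24, 11.29 and 11.33 on the 6 h arrays, against 11.10, 11.01 and 11.08 on the control arrays (0.22 ± 0.07, adjusted p = 0.949). Rpl22 read 10.63, 10.72 and 10.64 on the 6 h arrays, against 10.50, 10.59 and 10.34 on the control arrays (0.18 ± 0.08, adjusted p = 0.987). In these 3 probe sets every 6 h value was above every control value. Rps20 and its copies, with 11.07, 11.11 and 11.06 on the 6 h arrays and the control values given above, had 0.19 ± 0.06, again without overlap. Rps15a averaged 11.87 ± 0.12 on the 6 h arrays, against 11.61 ± 0.20 on the control arrays (SD). It had 0.26 ± 0.10 and overlapped with control array 2. For both the adjusted p was 0.987.

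Of the 17 members without overlap at 6 h, 2 more had values of this size: Rpl14 with 0.25 ± 0.13 and Rps25, listed with its copies, with 0.23 ± 0.18, both named here after their values were seen. Among the others, Rpl35a had 0.11 ± 0.06, Rpl13a 0.15 ± 0.11, Rpl26 0.09 ± 0.05, Rps14 with Rps14-ps7 0.10 ± 0.06, Rps16 0.10 ± 0.06, Rps18 with its copies 0.10 ± 0.06 and Rps13 with its copies 0.10 ± 0.09. Values near 0 were measured for Rpl5 (-0.005 ± 0.11), Rpl27 (-0.03 ± 0.06), Rpl10 with its copies (-0.04 ± 0.09), Rps7 with its copy (-0.004 ± 0.08) and Rps4x with its copy (-0.07 ± 0.07). The most negative was the brighter Rpl8 probe set (-0.12 ± 0.10), while the dim one had 0.23 ± 0.11. The Rpl7l1 probe sets also differed in sign, with 0.15 ± 0.12 and -0.08 ± 0.12. Among the remaining members named by role, Rpl11 had 0.13 ± 0.12, Rpl41 0.14 ± 0.07, Rpl38 0.10 ± 0.06, Rpl15 0.03 ± 0.07, Rpl26l1 0.26 ± 0.19, Rpl3 0.02 ± 0.05 and 0.11 ± 0.30, Rps3 0.12 ± 0.13, Rps6 0.09 ± 0.09, Rps15 0.07 ± 0.07, Rps19 0.09 ± 0.07, Rps27l 0.09 ± 0.19, and Rpsa 0.10 ± 0.08, 0.18 ± 0.10 and 0.15 ± 0.07.

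Set directly against 1 h, the 6 h arrays had lower values for most members, though none passed the test. The median log2 change was -0.09 over the large and -0.05 over the small subunit, against -0.01 over all probe sets, and 9 of 79 members (11.4%) were positive, against 47% of all probe sets. By limma, the lowest adjusted p among members was 0.996, and 0% of all probe sets passed in either direction. At an unadjusted p under 0.05 there were 3 lower members (3.80%), against 1.41% of all probe sets, and 1 higher (1.27%), against 1.31%. All 6 h values lay below all 1 h values in 12 members (15.2%), of which 10 were of the large subunit and 1 of the small, against 4.04% of all probe sets. They lay above in 1 member (1.27%), against 3.55%. The brighter Rpl8 probe set read 11.12, 11.29 and 11.12 on the 6 h arrays, against 11.44, 11.36 and 11.54 on the 1 h arrays (-0.27 ± 0.10). Rps18 with its copies read 11.48, 11.46 and 11.50 on the 6 h arrays, against 11.62, 11.60 and 11.60 on the 1 h arrays (-0.13 ± 0.06). The probe set listed for Rps10, Rps10l1 and Rpl30, picked out here after its values were seen, had -0.17 ± 0.07. Rpl39 went the other way, with 6.30, 6.83 and 6.23 on the 6 h arrays, against 5.94, 5.69 and 5.93 on the 1 h arrays (0.60 ± 0.26). The adjusted p of each of these 4 was 0.996.

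**Figure D4:**
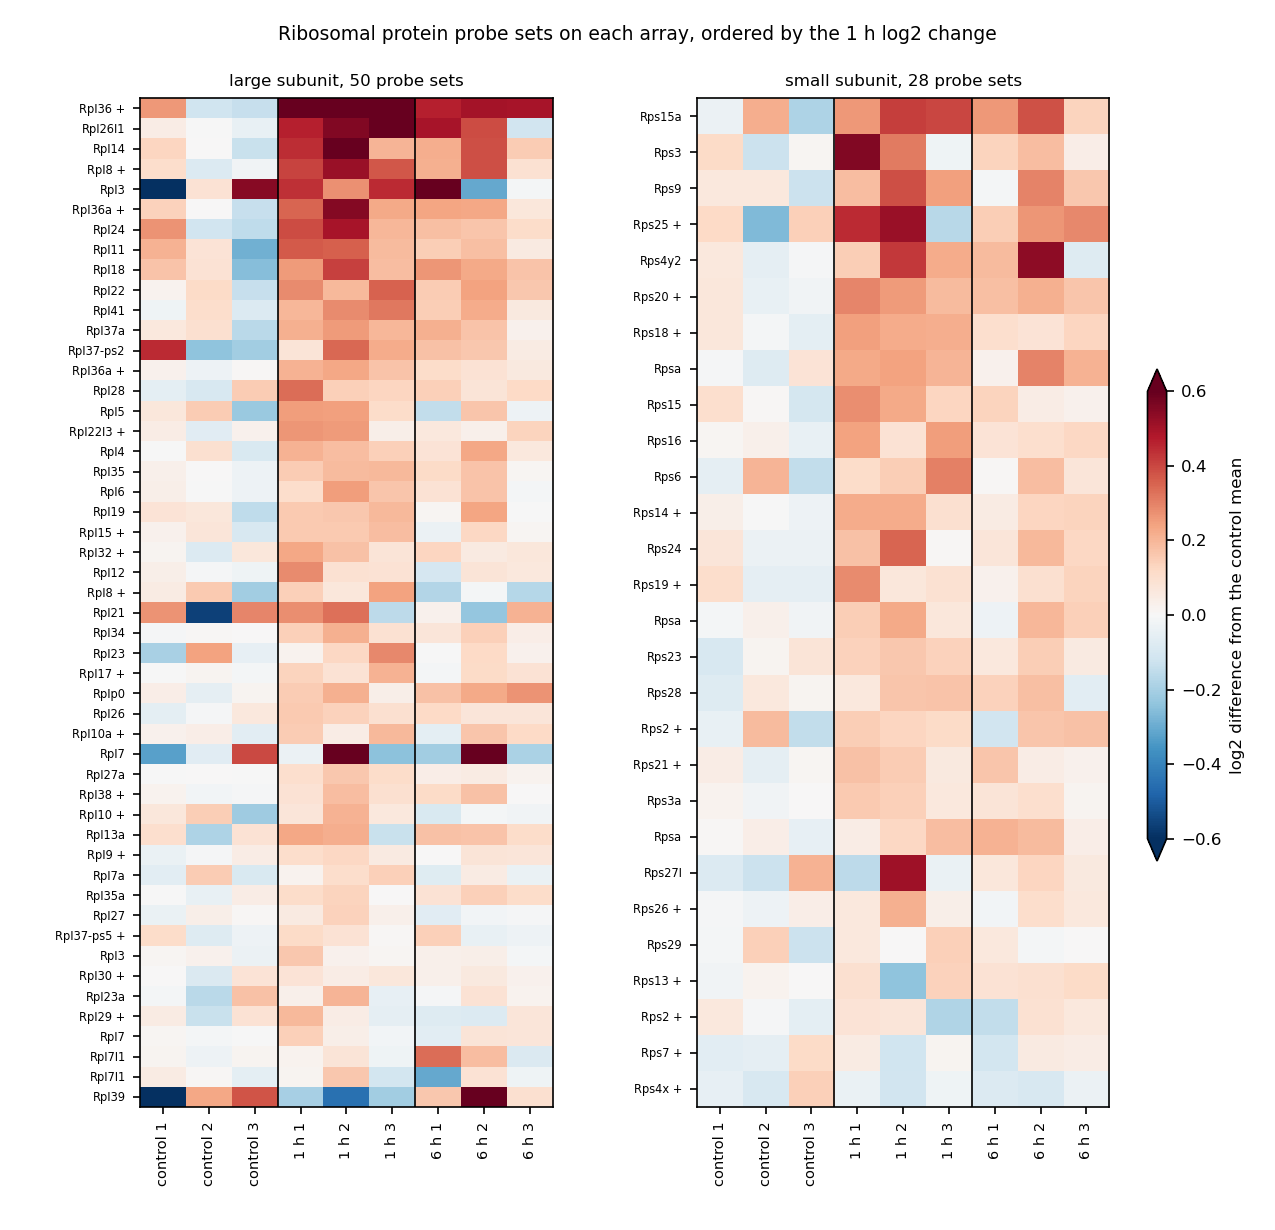
Log2 difference from the control mean (colour, blue lower and red higher) of the 50 large subunit and 28 small subunit probe sets on each array, in the order of the 1 h log2 change; a plus sign marks a probe set listed with further copies of the gene. The 1 h columns are mostly red and the 6 h columns paler, and dim probe sets such as Rpl39 vary more within groups than bright ones (median SD 0.199 against 0.088).

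Most members also varied with the rest of the members within groups. After taking out the group means, each tested member was correlated over the 9 arrays with the mean of the others: the median coefficient was 0.35, and 61 of 79 were positive. These deviations share the array, and its scaling, so the members are not independent readings. The coefficient was not computed for other probe sets, so whether it is particular to the members is not known. Of 7 genes with several tested probe sets, those of Rpsa, Rpl3, Rpl7 and Rpl36a gave changes of one sign at both times, while Rpl8 and Rpl7l1 differed in sign at 6 h and Rps2 at 1 h. The 50 members with 1 symbol had a median of 0.16 at 1 h and 0.10 at 6 h, and the 29 listed with several symbols 0.14 and 0.08. Members with CTTTCC within 50 bases of the start on the gene's strand (19 probe sets, 17 genes) had medians of 0.15 at 1 h and 0.10 at 6 h. Those whose promoter lacked it (44 probe sets, 40 genes) had 0.15 and 0.09.

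Genes that work with ribosomal proteins were read from lists of their own, and 0 probe sets of these lists passed the test in any comparison. Over all probe sets at most 0.0215% passed in either direction of any comparison, and 55.3% were positive at 1 h and 53.8% at 6 h. Rack1, a scaffold of the small subunit under another symbol, read 10.98, 11.13 and 11.07 on the 1 h arrays and 10.98, 11.07 and 10.97 on the 6 h arrays, against 10.89, 10.91 and 10.71 on the control arrays. Its changes were 0.22 ± 0.08 at 1 h (adjusted p = 0.378) and 0.17 ± 0.08 at 6 h (adjusted p = 0.987). Translation factors and other genes of pyrimidine-tract messages had 12 of 17 positive probe sets at 1 h (median 0.08) and 13 of 17 at 6 h (median 0.05). The smallest p values there belonged to Naca, which binds nascent chains (0.25 ± 0.09 at 1 h, adjusted p = 0.378), Eif3h, an initiation factor subunit (0.18 ± 0.07 at 1 h, 0.11 ± 0.07 at 6 h), and 1 of 3 probe sets of Hnrnpa1, a splicing regulator (0.24 ± 0.13 at 6 h). The other Hnrnpa1 probe sets had 0.01 ± 0.19 and 0.02 ± 0.09 at 6 h. Between the times the 3 Hnrnpa1 probe sets had 0.48 ± 0.13, 0.22 ± 0.19 and 0.09 ± 0.09, and Naca had -0.16 ± 0.09.

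Genes of ribosome assembly had 32 of 43 positive probe sets at 1 h (median 0.09) and 26 of 43 at 6 h (median 0.06). Over all probe sets 55.3% and 53.8% were positive, with medians of 0.03 and 0.01. Myc, which drives transcription of ribosomal genes, read 6.35, 6.14 and 6.60 on the 1 h arrays and 6.77, 6.37 and 6.51 on the 6 h arrays, against 5.93, 5.76 and 5.71 on the control arrays. Its changes were 0.57 ± 0.16 (adjusted p = 0.334) and 0.75 ± 0.16 (adjusted p = 0.397), without overlap. Mdm2 had 0.36 ± 0.13 and 0.52 ± 0.13 on the probe set of smallest p, while the other Mdm2 probe sets had -0.22 and 0.12 at 1 h and -0.27 and 0.39 at 6 h. Between the times the smallest p values were those of the snoRNA-binding Nop58 (-0.27 ± 0.11) and the large subunit maturation factor Sbds (-0.22 ± 0.13, and -0.13 ± 0.17 on its other probe set). The list of S6 kinases and mTORC1 signalling had 12 of 35 positive probe sets at each time (medians -0.07 and -0.06). Deptor, an mTOR inhibitor, had -0.25 ± 0.11 at 1 h and -0.18 ± 0.11 at 6 h on one probe set and -0.53 ± 0.28 and 0.13 ± 0.28 on another, dimmer one, and the translation regulator Larp1, which binds pyrimidine-tract messages, had -0.36 ± 0.17 at 1 h on the probe set of smallest p (adjusted p = 0.452) and 0.02, -0.07 and -0.19 on its other probe sets. Ddit4, another inhibitor of mTORC1, had -0.57 ± 0.16 at 6 h (adjusted p = 0.781) and -0.49 ± 0.16 between the times, where the dimmer Deptor probe set had 0.66 ± 0.28.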

How the data were processed

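The deposited table holds linear signal intensities of 31099 probe sets, 1 column per array; which software and filters the authors used is not given in the sources used here. The trimmed mean of the deposited intensities is 150.05 on every array. Gene symbols came from the platform annotation, of which 20837 probe sets have 1, 425 several and 9780 none; a probe set with several is described by its whole listing. Entrez numbers of 3 members found no match in the rat gene table, and 0 symbols changed. From the deposited intensities log2(signal + 16) was computed. Quantile normalization was applied because the array medians spanned 0.206. Leaving out 57 control probe sets and those whose mean lay below the 40th percentile (log2 5.21, signal 21.0) left 18625. Limma 3.58.1 in R 4.3.3 fitted 1 coefficient per group (6 residual degrees of freedom, intensity trend, Benjamini-Hochberg adjustment, threshold 0.05). The number of arrays limits the precision. The steps were tested on simulated data. Promoters came from RefSeq (GRCr8), and tables and figures used pandas 2.3.3 and matplotlib 3.10.9.

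The members and lists were chosen with earlier results of these data known. Named members are, per comparison and subunit, the 4 of smallest p in each direction, genes whose probe sets differ in sign, and members with stated roles; other lists give the 2 of smallest p. Alternatives were other scalings, pseudocounts of 1 and 64, no filter or the 60th percentile, no trend, array weights, a replicate block, only the compared groups, a 3'/5' ratio covariate, 1 probe set per gene, no probe sets of shared sequence and leaving out each array.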

Additional observations from a re-analysis of the deposited data

Results flagged for a closer look

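Probe sets of 4 ribosomal protein genes had every 1 h array on one side of the control mean and every 6 h array on the other. This was counted among the 79 tested members only. The share over all probe sets was not counted, so whether 4 is an unusual number is not known. Rpl10, listed with its copies, had a log2 change of 0.114 at 1 h and -0.0421 at 6 h (SE 0.0892 each). For Rpl27 the changes were 0.0748 and -0.0305 (SE 0.0557 each), and for the brighter Rpl8 probe set 0.151 and -0.12 (SE 0.0977 each). Rpl39 was the reverse, with -0.285 at 1 h and 0.317 at 6 h (SE 0.257 each). Its probe set is dim (mean log2 6.15) and overlapped with the control at both times. The control arrays themselves read 5.53, 6.37 and 6.51. The difference between the times was tested by limma's 6 h against 1 h comparison, in which the adjusted p of each was 0.996. Both changes are set against the same control arrays. With centring on array medians the 6 h changes of Rpl10, Rpl27 and Rpl8 were 0.11, 0.11 and 0.03, so their sign at 6 h depended on the scaling, while Rpl39 had -0.27 and 0.33.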

How the results depend on the processing

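No member passed the test in any comparison under any of the alternatives run. The medians of both subunits kept their sign under all of them. At 1 h they were 0.272 (large) and 0.274 (small) with the values as deposited, 0.376 and 0.377 with centring on array medians, and 0.187 for the small subunit with the 3'/5' ratio as a covariate. At 6 h they were 0.129 and 0.155 as deposited and 0.206 and 0.233 centred, and between the times -0.150 and -0.123 as deposited and -0.176 and -0.149 centred. Centring also moved the median of all tested probe sets at 1 h to 0.096. Leaving out 1 array gave 1 h medians of 0.142 to 0.178 (large) and 0.134 to 0.170 (small), 6 h medians of 0.068 to 0.108 and 0.077 to 0.113, and differences between the times of -0.105 to -0.073 and -0.084 to -0.039. The count of 33 members higher at an unadjusted p at 1 h was 57 as deposited, 66 centred and 13 with no intensity trend, and 20 to 36 with 1 array left out. The count of 5 at 6 h was 11, 27 and 2 under the same settings, 9 with array weights, 3 with the covariate and 3 to 12 with 1 array left out. These settings were applied to the unadjusted counts after seeing the data. Over all probe sets, the 6 calls at 1 h were 3 with no filter, 25 with array weights, 1 with the covariate and 0 to 10 with 1 array left out. The 5 calls at 6 h were 2 as deposited, 1 centred, 2 with no filter, 1 with only the compared groups, 1 with the covariate and 1 with any array left out. With the replicate block the calls were 2 at 1 h and 1 at 6 h, and the members' counts 35 and 6. The deviations of same-numbered arrays correlated at -0.36 to 0.54, and those of differently numbered arrays at -0.43 to 0.53. With 3 arrays a group these values cannot decide whether equal replicate numbers pair the arrays. The cause of the differences between settings was not tested. Of 41 named probe sets, 34 kept 1 sign at 1 h, 29 at 6 h and 27 between the times under every alternative.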

Other observations

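A further 6 probe sets of ribosomal proteins are listed together with uncharacterized symbols and are therefore no members. Rps12 and its copies had 11.53, 11.54 and 11.57 on the 1 h arrays, against 11.37, 11.30 and 11.25 on the control arrays, a log2 change of 0.24 ± 0.06 (SE, n = 3; adjusted p = 0.299 by limma). Its 6 h change was 0.15 ± 0.06, and both were without overlap. Rplp1 of the stalk, with its copies, had 0.17 ± 0.07 at 1 h and 0.06 ± 0.07 at 6 h, and Rpl13 0.27 ± 0.12 and 0.13 ± 0.12. Values near 0 were measured for Rpl31 (0.04 ± 0.05 and -0.02 ± 0.05), Rpl28 (0.04 ± 0.08 and 0.004 ± 0.08) and Rps27 (0.01 ± 0.05 and -0.01 ± 0.05). Rpl28 also has a dim member probe set (mean log2 5.54), with 0.20 ± 0.13 at 1 h and 0.11 ± 0.13 at 6 h, overlapping with the control at both times.

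The array also carries a control probe set for 5S rRNA, the small RNA that Rpl5 and Rpl11 bind. On the log2 scale of the deposited values it read 6.47, 6.44 and 6.48 on the 1 h arrays, 6.60, 6.15 and 6.33 on the 6 h arrays and 6.03, 6.12 and 6.18 on the control arrays. The 1 h values lay above all control values, and 6 h array 2 overlapped with the control. Of all tested probe sets, 13% had all 1 h values above all control values after quantile normalization, which the 5S values did not have. It is 1 of 57 control probe sets, which were left out of the fit, so its difference was not tested. Whether its signal follows the amount of 5S rRNA was not tested either.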
